A study of Mus musculus with 12 samples.

Results

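The response of wild type dendritic cells to lipopolysaccharide (LPS) was read from 6 of the 12 arrays of the series, chosen by their sample titles: 3 arrays of untreated, immature cells and 3 of LPS-treated, mature cells. Dendritic cells were grown from the bone marrow of C57/B6 mice. The protocol names donors with the floxed allele Ezh2f/f alone and donors that also carry the inducible Mx-cre transgene, and the genotype label of these 6 arrays is wild type. Marrow cells of every group were grown in 20 ng/ml of GM-CSF and 10 ng/ml of IL-4, were moved on day 2 to 10 ng/ml of GM-CSF, and were kept for 6 or 7 days. Mature cells had an overnight exposure to 100 ng/ml of LPS, and an unstated subset of mature cells was held in serum-free medium for 6 hours. The labels give neither the number of mice nor whether replicates came from separate cultures, and the spread behind each p-value is that between these arrays only, which may be technical. Arrays are called untreated 1 to 3 and LPS 1 to 3 by their labels, and arrays with the same number are called a set.

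LPS, a component of the outer membrane of Gram-negative bacteria, is bound with the help of CD14 and MD-2 by the receptor TLR4. One arm of TLR4 signalling runs through MyD88 to NF-kB and the MAP kinases and drives cytokine genes, and another runs through TRIF to IRF3, interferon beta and, through its receptor, the interferon-stimulated genes. A maturing dendritic cell is known to stop sampling its surroundings, to raise costimulatory molecules and cytokines, and to move towards the lymph node.

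The pair of set 3 was kept out of the comparison, because Il6, a cytokine gene switched on by TLR4, went against its labels. Since Il6 made that choice, its own values are a description. Il6 was at 6.45 and 6.02 (log2 normalised intensity, the scale of every level below) on untreated 1 and 2 and at 11.82 and 12.32 on LPS 1 and 2. On the array labelled untreated 3 it was at 11.99, and on the array labelled LPS 3 at 4.93. The set 3 pair also stood apart in Cdkn2a, a cell cycle inhibitor, which was not detected on untreated 1 and 2 or LPS 1 and 2 (4.55 to 5.04) and was at 8.08 and 7.63 on the arrays labelled untreated 3 and LPS 3. It was at 7.28 to 7.84 on the 4 Ezh2-deficient arrays of sets 1 and 2, and it was not detected on the 2 arrays labelled Ezh2-deficient in set 3. The genotype label of set 3 therefore stands in doubt as well as its stage, and values of set 3 may not be those of wild type cells. The comparison therefore rests on sets 1 and 2, 2 arrays a stage, with the Ezh2-deficient arrays of sets 1 and 2 in the same fit for the spread, and the p-values do not account for that choice. Set 3 is described on its own further on, as labelled and with its stages exchanged.

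Of 45281 probes, 17632 with a single gene symbol were detected on enough arrays to be kept, and they stood for 10908 genes. Per array 17892 to 19611 probes were detected, with median intensities of 108 to 119, and with 2 arrays a stage the number of arrays limits the precision (median standard error, SE, 0.24 on the log2 scale). Of 11 tested identity genes of dendritic cells 10 were detected on all 4 arrays and Cd209a, a lectin, on 1, while 3 further genes of the list, Flt3, Xcr1 and Hepacam2, were not tested. The summed linear intensity of the list, 127600 to 136400, came mostly from H2-Ab1 and Cd74 at the top of the scale. Without them it was 12220 and 15650 on the untreated and 7941 and 12570 on the LPS arrays. H2-Ab1, a chain of MHC class II, was at 15.86 and 15.69 without and 15.86 and 15.94 with LPS, at the top of the scale. Markers of other cells were present too. All 13 tested macrophage markers were detected, with a summed intensity of 97820 and 67030 on untreated 1 and 2 and 74640 and 33470 on LPS 1 and 2. On the untreated arrays Lyz2 was the brightest of them, at 15.54 and 14.51, against 14.09 and 11.98 with LPS. Sums without Lyz2 are not given here, so these sums do not show how the other members moved. All 20 tested neutrophil markers were detected on at least 1 array, with sums of 29140 to 49940 without and 45190 to 59680 with LPS. Without Lcn2, described below as risen, the sums were 28410 and 47900 against 11350 and 20180, and 17 of the 20 markers had a negative change. In bulk RNA, fewer cells of a type and less RNA per cell cannot be told apart.

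LPS changed the level of 3307 genes, 30.3% of those tested, at an adjusted p under 0.05 (limma, Benjamini-Hochberg over 10908 genes): 1377 rose (12.6%) and 1930 fell (17.7%). At an unadjusted p under 0.05 there were 4550. The median change over all genes was -0.03 (log2), the median rise among called genes 1.19 and the median fall -1.19. Among the risen genes 896 rose at least 2-fold, 254 at least 4-fold, 81 at least 8-fold and 36 at least 16-fold. Among the fallen genes the counts were 1225, 340, 102 and 29. Fewer genes thus rose than fell at each size up to 8-fold, and more rose than fell past 16-fold. No called gene had overlapping groups. With 2 arrays a stage a call leaves little room for overlap, so this is not separate support for the calls. The share of all tested genes without overlap is not given here. Fewer genes were called without untreated 1 or without untreated 2.

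**Figure D1:**
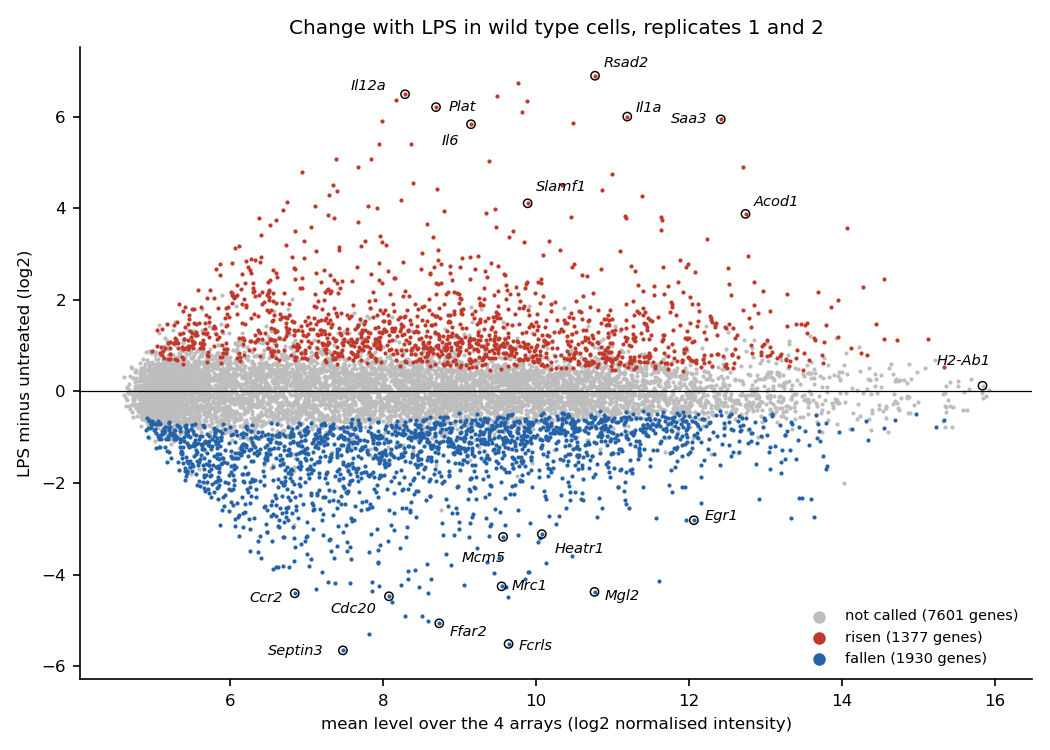
Change with LPS (log2, vertical axis) against the mean level over untreated 1 and 2 and LPS 1 and 2 (log2 normalised intensity, horizontal axis) for 10908 genes, each point 1 gene. The 1377 risen genes are red and the 1930 fallen genes blue, and circled genes are described in the text.

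Outside the interferon-stimulated genes, the largest rise was that of Il12a, the p35 subunit of interleukin 12. Il12a was at 5.44 and 4.64 on untreated 1 and 2, where it was detected on 1 of the 2 arrays, and at 11.78 and 11.29 on LPS 1 and 2. The rise of Il12a was 6.49 (SE 0.38, 89.8-fold, limma adjusted p = 8.23e-05), and the LPS arrays lay far above both untreated ones. On the values the authors deposited, without background correction, the rise of Il12a was 4.69, and all 268 called genes named by rule changed less on that scale, 71 of them by more than 1.5 times. Plat, the tissue plasminogen activator, went from 6.02 and 5.16 to 11.80 and 11.80, a rise of 6.21 (SE 0.29; 3.48 as the mean of its probes). Il1a, an alarm cytokine, stood at 8.62 and 7.77 without and at 14.41 and 13.98 with LPS (6.00, SE 0.32). Both genes were detected on all 4 arrays. Saa3, an acute-phase protein, rose from 10.03 and 8.86 to 15.50 and 15.28 (5.94, SE 0.35).

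The other large rises came from several functions. Hamp, Vnn3, Susd2, Ptges and Nos2 were each detected on 1 of the 2 untreated arrays, so that their low level is partly below detection. Nos2, the inducible nitric oxide synthase, was at 5.27 and 4.81 without and 11.38 and 10.50 with LPS, a rise of 5.90 (SE 0.44, limma adjusted p = 0.000194) that was 3.30 as the mean of its probes. Lcn2, which binds bacterial iron carriers, rose by 4.91 (SE 0.68) and Hamp, which encodes the iron hormone hepcidin, by 5.40 (SE 0.37). Inhba, the subunit of activin A, rose by 4.74 (SE 0.21) from 8.78 and 8.47 to 13.21 and 13.52. Matrix proteases and their inhibitors, the list that holds Plat and Timp1, had 10 risen and 4 fallen of 31 (median 0.36). Timp1, an inhibitor of matrix metalloproteases, rose by 4.51 (SE 0.59), with LPS 1 at 13.46 and LPS 2 at 11.73. Vnn3, of the vanin family, Susd2, a membrane protein with a sushi domain, and Nupr1, a stress-induced nuclear protein, rose by 4.90, 4.50 and 4.39. Ptges, which makes prostaglandin E2, was at 5.01 and 5.40 without LPS and at 10.64 and 8.52 with it. Its rise of 4.38 had an SE of 0.78, the widest of this group. Slc1a2, a glutamate transporter, was not detected on either untreated array and was at 10.51 and 9.34 with LPS, at least 27.3-fold higher (adjusted p = 0.00104). Such bounds, here and below, set the bright stage against the lowest detected signal of each array of the other stage. For Slc1a2 1 of its 4 probes had the opposite sign.

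The largest falls included genes of the cell surface. Septin3, a cytoskeletal GTPase, was at 9.72 and 10.88 on untreated 1 and 2 and was not detected on either LPS array (4.54 and 4.76), at least 33.4-fold lower (limma adjusted p = 0.000291). Fcrls, a scavenger receptor related to Fc receptors, went from 12.11 and 12.68 to 6.81 and 6.96, a fall of 5.51 (SE 0.22, 45.6-fold). Asgr2, a subunit of the asialoglycoprotein receptor, was not detected with LPS and was at least 37.3-fold lower. Ffar2, a receptor for short-chain fatty acids, dropped from 10.89 and 11.65 to 6.02 and 6.39 (-5.06, SE 0.40). Cd207, the lectin langerin known from Langerhans cells, fell by 5.01 (SE 0.59), Rnase6, an antimicrobial ribonuclease, by 4.90 (SE 0.74), and F2rl2, a protease-activated receptor, by 4.59 (SE 0.53). For Cd207, Rnase6 and F2rl2 the 2 LPS arrays differed from each other by more than the 2 untreated ones did. Rnase6 and F2rl2 were detected on 1 of the 2 LPS arrays. Ramp1, a subunit of the receptor for calcitonin gene-related peptide, fell by 4.35 (SE 0.29), and Acot6, an acyl-CoA thioesterase, was not detected with LPS and was at least 16.4-fold lower.

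**Figure D2:**
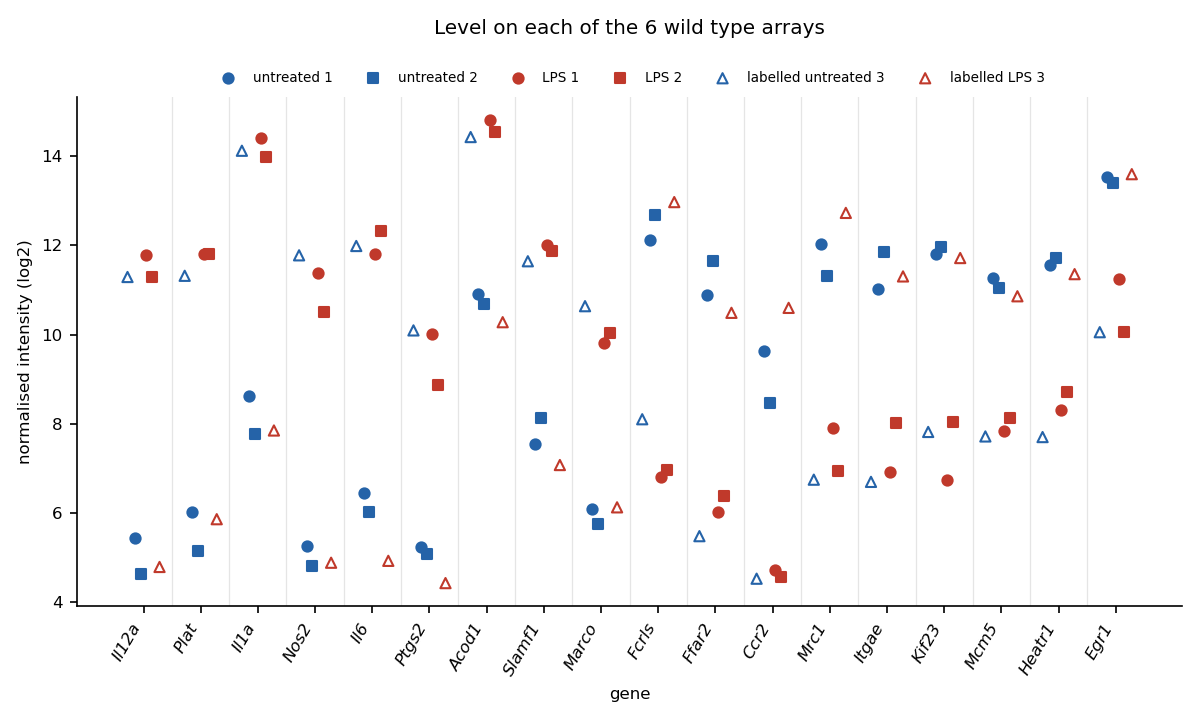
Level (log2 normalised intensity, vertical axis) of 18 genes on each of the 6 wild type arrays. Filled points are untreated 1 and 2 (blue) and LPS 1 and 2 (red), and open triangles are the arrays labelled untreated 3 (blue) and LPS 3 (red), which lie on the other stage's side for each gene shown.

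Interferon-stimulated genes had the highest share called of the pathway lists, 85.9%, just above mitosis at 85.4%, described below. Of 85 tested interferon-stimulated genes 71 rose and 2 fell, against 12.6% risen and 17.7% fallen over all genes. Their median change was 1.91. The 3 largest rises were Rsad2, the antiviral enzyme viperin, by 6.89 (SE 0.47), Oasl1, of the oligoadenylate synthetase family, by 6.74 (SE 0.33), and Irf7, a transcription factor of the interferon system, by 6.46 (SE 0.41). The lists below are the other ones, since 1306 of the 1377 risen genes were outside this list. Counts below are to be set against 12.6% risen and 17.7% fallen over all genes. A list with shares near these is no result about the list. This held for messenger RNA decay and splicing (14.8% risen, 14.8% fallen) and integrins and adhesion (17.5%, 14%). It also held for the lysosome (14%, 20%) and immediate early factors (17.4%, 17.4%). Only the total called was near 30.3% for nuclear receptor and clock genes (21.2%, 6.06%) and Rab GTPases and SNAREs (19.7%, 11.5%). The same was so for metabolite transporters (22.2%, 8.33%) and oxidative phosphorylation (none risen, 31.8% fallen).

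Secreted cytokines and growth factors held 18 risen and 5 fallen members of 42 tested (median 0.71). Beside Il12a, Il1a, Il6 and Inhba, the anti-inflammatory cytokine Il10 was not detected without LPS (4.83 and 4.51) and was at 9.26 and 8.37 with it, at least 12.6-fold higher (limma adjusted p = 0.000451). Both LPS arrays were thus well above the untreated ones. The fallen members with the largest changes were Ltb, lymphotoxin beta, which fell by 2.15 (SE 0.40) from 7.83 and 8.65 to 5.74 and 6.44, and Il16, a chemoattractant cytokine, which fell by 2.12 (SE 0.38, with -1.34 as the mean of its probes).

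Of 24 chemokines 9 rose and 2 fell (median 0.32). The neutrophil attractant Cxcl1 rose from 9.18 and 7.93 to 12.09 and 12.64 (3.81, SE 0.39). Its relative Cxcl3 was not detected without LPS and was at least 8.64-fold higher. Ccl4, which attracts monocytes and T cells, went from 10.55 and 10.58 to 13.74 and 14.05, a rise of 3.33 (SE 0.17) with narrow spread at both stages. Ccl6 fell by 2.27 (SE 0.41) and Ccl27a by 1.25 (SE 0.21).

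Receptors that steer migration had 5 risen and 5 fallen of 21 tested. Ccr7, the receptor that leads mature dendritic cells to lymph nodes, was already at 11.44 and 11.58 without LPS and reached 12.18 and 12.52, a rise of 0.84 (SE 0.18, limma adjusted p = 0.0105) whose call was lost without untreated 1 or without LPS 2. Cxcr5, the receptor for the B cell follicle chemokine, rose from 4.91 and 5.34 to 8.03 and 8.63 (3.21, SE 0.29), detected on 1 of the 2 untreated arrays. Ccrl2, a receptor that presents chemerin, rose by 2.51 (SE 0.41). In the other direction Ccr2, the receptor of inflammatory monocytes, went from 9.64 and 8.46 to below detection (4.71 and 4.57), at least 14.02-fold lower. Ccr6, the receptor for Ccl20, was likewise not detected with LPS and was at least 5.28-fold lower. Both receptors that were lost had been clearly present on untreated arrays.

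Costimulatory and maturation markers held 15 risen and 4 fallen of 35 (median 0.84). Slamf1, a self-ligand of lymphocytes and dendritic cells, went from 7.55 and 8.13 to 12.01 and 11.88 (4.11, SE 0.21). Cd70, the ligand of CD27, rose by 3.94 (SE 0.56) and Cd200, an inhibitory surface protein, by 3.38 (SE 0.24). Cd40, through which T cells license dendritic cells, was at 10.26 and 11.29 without and 12.88 and 13.90 with LPS (2.61, SE 0.47). Cd86, the ligand of CD28, was at 12.37 and 13.15 against 13.48 and 14.25, and with a change of 1.11 (SE 0.39, limma adjusted p = 0.067) it did not pass. It passed in 3 of 16 alternatives, as the mean of its probes, without LPS 1 and with the replicate block, with adjusted p-values of 0.000389 to 0.319 over all 16. Cd200r1, the receptor for Cd200, fell by 2.53 (SE 0.38) while its ligand rose. Tnfsf14, the cytokine LIGHT, fell by 1.97 (SE 0.31).

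Of 21 genes of MHC class I presentation and the immunoproteasome 15 rose and none fell (median 1.06), for example H2-Q6 from 8.83 and 8.83 to 11.79 and 10.79 (2.46, SE 0.34) and H2-Q7 by 1.68 (SE 0.24). Detection and sequence limit single members: class I genes are close paralogs whose probes may read each other, so single members are uncertain. Of 18 genes of class II presentation none rose and 3 fell, 16.7% against 17.7% fallen over all genes, and the list median was -0.09. H2-DMa, which helps load peptides on class II, went from 13.77 and 14.22 to 12.40 and 12.63 (-1.48, SE 0.20). Nfyc, a subunit of the factor NF-Y, fell by 0.87 (SE 0.14). H2-DMb1 had a change of -0.53 (adjusted p = 0.0484) and lost its call in 11 of 16 alternatives. At the top of the scale an array can hide a change, and H2-Ab1, which lay there, changed by 0.12 (SE 0.16, adjusted p = 0.595), and 1 of its 3 probes had the opposite sign. Of 30 subunits of the constitutive proteasome 2 rose and 3 fell.

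**Figure D3:**
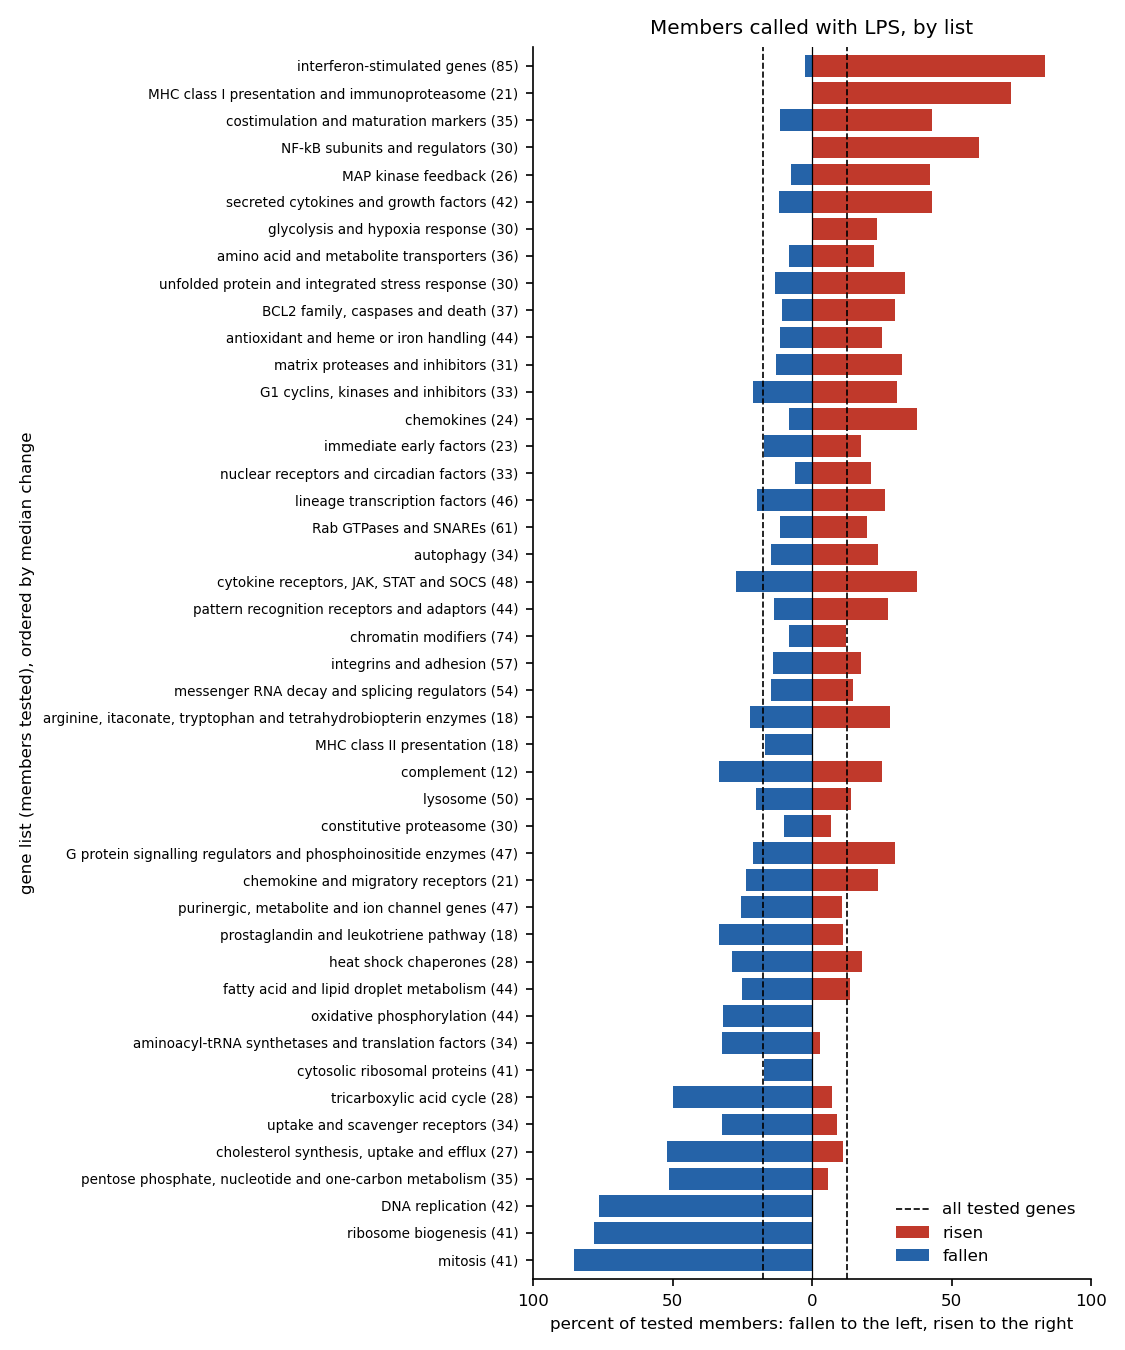
Percent of tested members that fell (blue, to the left) and rose (red, to the right) with LPS in the pathway gene lists, with the number tested in parentheses and the lists ordered by median change. Dashed lines mark all tested genes (17.7% fallen, 12.6% risen), and interferon-stimulated genes and mitosis are the ends of the order.

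Receptors for microbial products, counted with their adaptors and signalling kinases, held 12 risen and 6 fallen members of 44. Tlr4 itself, the receptor for LPS, was at 10.00 and 9.09 without and 9.96 and 9.47 with LPS, a change of 0.17 (SE 0.42, adjusted p = 0.791) whose sign turned with the probe or array left out. Its partner Cd14 rose by 2.19 (SE 0.39) from 12.53 and 11.22 to 14.06 and 14.07. Tlr1, which pairs with TLR2 for lipopeptides, rose by 3.27 (SE 0.39) from 6.00 and 6.25 to 9.83 and 8.97. Clec4e, the lectin Mincle, and Casp4, an inflammatory caspase that senses LPS in the cytosol, rose by 2.73 (SE 0.47) and 2.68 (SE 0.19). Sting1, the adaptor of cytosolic DNA sensing, went the other way, from 9.69 and 9.66 to 7.46 and 7.98 (-1.96, SE 0.23), and Tlr5, the flagellin receptor, fell by 1.75 (SE 0.34).

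Among uptake and scavenger receptors 11 fell and 3 rose of 34 (median -0.74), 32.4% and 8.82% against 17.7% and 12.6% over all genes. The lectin Mgl2 dropped from 12.59 and 13.32 to 8.70 and 8.45 (-4.38, SE 0.26). The mannose receptor Mrc1 dropped from 12.04 and 11.32 to 7.90 and 6.95 (-4.25, SE 0.41), and Clec10a, a galactose lectin, from 9.38 and 10.47 to 5.83 and 5.73 (-4.15, SE 0.36). All 3 were clearly detected on untreated arrays. The risen members were Marco, a scavenger receptor for bacteria, from 6.08 and 5.75 to 9.81 and 10.03 (4.002, SE 0.22), Fcgr4, an activating Fc receptor, by 3.36 (SE 0.63), and Siglec1, the lectin sialoadhesin, which was not detected without LPS and at least 3.16-fold higher with it (a call lost without untreated 2). Among macrophage markers 5 of 13 fell, Mrc1, Csf1r and the 3 chains of C1q, and only Marco was called as risen. The list as a whole did not fall, with a median of 0.13 and 7 positive and 6 negative changes. Adgre1, Mertk, Fcgr1, Gpnmb, Arg1 and Ms4a7 had positive changes that were not called. Csf1r, the receptor for M-CSF, was at 13.10 and 12.83 against 11.94 and 10.78 (-1.60, SE 0.51, limma adjusted p = 0.0487), a call lost in 8 of 16 alternatives. Lyz2, a lysozyme of myeloid cells named after its values were seen, was at 15.54 and 14.51 against 14.09 and 11.98 and did not pass (adjusted p = 0.107). The part of macrophages in the falls of uptake genes was not tested.

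NF-kB subunits and regulators moved one way: 18 of 30 rose and none fell, with a median of 0.80. The rises were moderate. The inhibitor Tnfaip3 (A20) went from 10.74 and 10.25 to 12.55 and 12.63 (2.10, SE 0.23), Nfkbiz, an inducible nuclear inhibitor-like protein, rose by 1.98 (SE 0.36) and the kinase Map3k8 by 1.75 (SE 0.19). MAP kinase feedback genes held 11 risen and 2 fallen of 26. The phosphatase Dusp14 was not detected without LPS and was at least 10.9-fold higher, and Dusp2 and Dusp4 rose by 3.18 (SE 0.27) and 2.12 (SE 0.36). Dusp3 had a change of -0.68, and the mean of its 4 probes was 0.19, so its direction depends on the probe.

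Immediate early factors were split, 4 risen and 4 fallen of 23. Atf3 rose from 10.64 and 10.50 to 13.38 and 12.39 (2.31, SE 0.37) and Mxd1, an antagonist of Myc, by 1.64 (SE 0.32). Egr1 was high without LPS, at 13.54 and 13.40, and was at 11.25 and 10.07 with it (-2.81, SE 0.37, limma adjusted p = 0.00135). Egr2 fell by 2.09 (SE 0.28) and Mycl, a Myc family member of dendritic cells, by 1.91 (SE 0.26).

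Among lineage transcription factors 12 rose and 9 fell of 46. Zfp366, also known as DC-SCRIPT, rose from 5.65 and 6.00 to 9.43 and 9.63 (3.70, SE 0.32). Batf, an AP-1 family factor, rose by 2.68 (SE 0.25). Hhex fell by 1.44 (SE 0.26) and Tcf7l2, a factor of Wnt signalling, by 1.46 (SE 0.26). Cytokine receptors with their JAK, STAT and SOCS partners held 18 risen and 13 fallen of 48. Il15ra, which presents interleukin 15, rose from 7.93 and 7.37 to 10.71 and 10.04 (2.73, SE 0.37), and Socs3, a feedback inhibitor, from 11.01 and 11.31 to 14.12 and 13.61 (2.70, SE 0.30). Il18r1, a chain of the interleukin 18 receptor, fell by 3.81 (SE 0.36) and its partner chain Il18rap, not detected with LPS, was at least 2.68-fold lower, with 1 of 2 probes of the opposite sign. Tgfbr2, the type II receptor for TGF beta, fell by 2.19 (SE 0.25, with -1.17 as the mean of its probes).

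Promoters of 8888 of the 10908 tested genes were matched by gene ID in the RefSeq table (GRCm38.p6), each as 300 bases from 250 before to 50 after the start, with several promoters for some genes. Motifs were searched on both strands: kB, bound by NF-kB (GGGANTTTC, GGGGNTTTC or GGGANTTCC), the interferon-stimulated response element ISRE (AANNGAAAC), AP-1 (TGANTCA), CRE (TGACGTCA) and E2F (TTTCCCGC, TTTGGCGC, TTTCGCGC or TTTGCCGC). An ISRE match was in 52.9% of 68 promoters of risen interferon-stimulated genes, in 5.53% of those of the other risen genes and in 4.72% of all promoters of tested genes. A kB match was in 5.17% of promoters of risen genes outside the interferon list, 4.03% of those of fallen genes and 4.29% of those of all tested genes. AP-1 matches were in 26.5% of promoters of risen interferon-stimulated genes, 6.09% of those of the other risen genes, 5.13% of those of fallen genes and 5.70% of those of all tested genes. CRE matches were in 2.83% of promoters of risen genes outside the interferon list, 2.62% of those of fallen genes and 2.93% of those of all tested genes. An E2F match was in 18.8% of 64 promoters of fallen replication and mitosis genes, 5.64% of those of fallen genes and 3.87% of those of all tested genes. The same 64 promoters held a kB match in 10.9%. A match is a description of letters and not a binding site.

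The promoters of 4 genes are shown as examples of these matches: the 2 genes with the largest rise outside the interferon list that hold a kB match, the interferon-stimulated gene with the largest rise that holds an ISRE match, and the replication or mitosis gene with the largest fall that holds an E2F match. Capitals mark the match. The windows are in GRCm38.p6: Il6 at chr5:30012864-30013163 (plus strand), Cxcl1 at chr5:90890995-90891294 (plus strand), Rsad2 at chr12:26456403-26456702 (minus strand) and Mcm5 at chr8:75109259-75109558 (plus strand).
Il6: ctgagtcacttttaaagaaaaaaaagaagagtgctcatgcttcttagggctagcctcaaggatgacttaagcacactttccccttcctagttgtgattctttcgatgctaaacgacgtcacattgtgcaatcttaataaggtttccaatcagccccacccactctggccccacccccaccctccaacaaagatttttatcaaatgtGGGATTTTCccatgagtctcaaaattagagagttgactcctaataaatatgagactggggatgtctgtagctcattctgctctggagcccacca
Cxcl1: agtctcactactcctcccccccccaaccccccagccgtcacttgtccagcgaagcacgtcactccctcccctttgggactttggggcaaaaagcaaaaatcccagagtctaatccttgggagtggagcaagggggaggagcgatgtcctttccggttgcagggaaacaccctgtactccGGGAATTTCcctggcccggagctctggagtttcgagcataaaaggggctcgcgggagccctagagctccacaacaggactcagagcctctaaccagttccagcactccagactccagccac
Rsad2: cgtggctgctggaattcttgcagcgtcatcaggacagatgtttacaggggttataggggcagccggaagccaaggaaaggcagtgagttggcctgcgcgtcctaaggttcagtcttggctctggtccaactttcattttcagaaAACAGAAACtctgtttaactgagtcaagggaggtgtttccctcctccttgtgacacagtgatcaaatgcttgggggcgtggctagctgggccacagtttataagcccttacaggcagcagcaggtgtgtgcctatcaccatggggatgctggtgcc
Mcm5: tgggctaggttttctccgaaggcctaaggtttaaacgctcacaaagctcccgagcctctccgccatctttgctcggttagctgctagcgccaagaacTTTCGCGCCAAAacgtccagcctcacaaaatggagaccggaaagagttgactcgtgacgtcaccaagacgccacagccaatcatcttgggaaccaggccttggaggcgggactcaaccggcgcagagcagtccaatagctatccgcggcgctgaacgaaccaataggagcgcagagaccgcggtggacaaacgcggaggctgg
The kB match began 44 bases before the start in Il6, which rose 57.1-fold, and 71 bases before it in Cxcl1, which rose 14.1-fold. The ISRE match of Rsad2 (119-fold) began 106 bases before the start. Mcm5, which fell 9.03-fold, held 2 overlapping E2F matches on opposite strands that began 153 and 149 bases before the start.

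Genes of cell division fell together. Of 41 tested mitosis genes 35 fell and none rose (median -2.63), and of 42 DNA replication genes 32 fell and none rose (median -1.26), against 17.7% fallen over all genes. Kif23, a kinesin of the dividing cell's midzone, went from 11.80 and 11.96 to 6.75 and 8.04 (-4.49, SE 0.57, limma adjusted p = 0.00115), with 1 of its 4 probes of the opposite sign and -2.44 as their mean. Cdc20, which activates the anaphase-promoting complex, went from 10.23 and 10.40 to 5.12 and 6.56 and was detected on 1 of the 2 LPS arrays (-4.47, SE 0.62). Birc5, survivin, fell by 4.27 (SE 0.42). For these 3 genes the untreated arrays lay close together, and LPS 2 was above LPS 1. Pclaf, which binds the replication clamp, fell by 4.89 (SE 0.55) from 10.93 and 10.54 to 4.96 and 6.73 and was detected on 1 of the 2 LPS arrays, as was Rrm2.

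The replication genes showed the same order of arrays. The helicase subunit Mcm5 went from 11.26 and 11.05 to 7.83 and 8.14 (-3.17, SE 0.27), Mcm10 from 9.48 and 9.31 to 5.72 and 6.85 (-3.11, SE 0.47), and Rrm2, a subunit of ribonucleotide reductase, fell by 2.97 (SE 0.31). G1 regulators did not move together, with 10 risen and 7 fallen of 33. Cyclin D1 (Ccnd1) went from 11.41 and 12.60 to 7.49 and 9.04 (-3.74, SE 0.65), whereas cyclin D2 (Ccnd2) went from 11.12 and 12.19 to 13.99 and 14.12 (2.40, SE 0.38). The growth arrest genes Gadd45b and Gadd45g rose by 2.33 (SE 0.33) and 2.06 (SE 0.21). E2f2, an activating E2F factor, fell by 3.17 (SE 0.27) and E2f6, a repressive one, by 1.76 (SE 0.23, with -1.05 as the mean of its probes).

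Ribosome biogenesis fell in 32 of 41 tested genes with none risen (median -1.42). Heatr1, needed for ribosomal RNA transcription, went from 11.55 and 11.71 to 8.32 and 8.72 (-3.11, SE 0.18, limma adjusted p = 8.07e-05). Ppan and the nucleolar protein Nop58 fell by 2.66 (SE 0.33) and 2.65 (SE 0.38). The ribosomal proteins themselves shifted less: 39 of 41 had a negative change with a median of -0.58, but 7 were called, 17.1% against 17.7% over all genes. Rpl22 went from 10.56 and 10.49 to 9.01 and 9.16 (-1.44, SE 0.19). Ribosomal protein probes may also read processed pseudogenes. Among tRNA synthetases and translation factors 11 fell and 1 rose of 34, led by the valyl and isoleucyl enzymes Vars (-2.53, SE 0.41) and Iars (-1.85, SE 0.20).

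**Figure D4:**
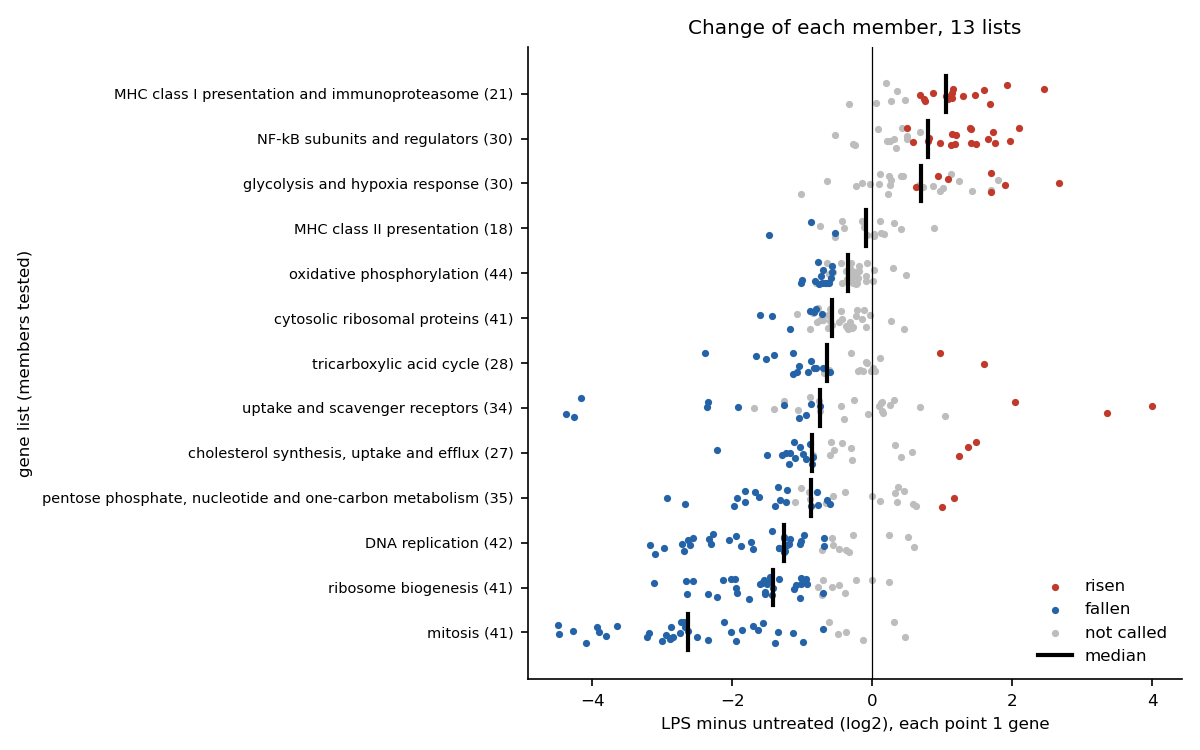
Change with LPS (log2, horizontal axis) of each tested member of 13 gene lists, each point 1 gene, with the number tested in parentheses. Red points rose, blue points fell, grey points were not called, and the black bar is the list's median, from 1.06 for MHC class I presentation to -2.63 for mitosis.

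Mitochondrial metabolism fell in part. Of 28 genes of the tricarboxylic acid cycle and its neighbours 14 fell and 2 rose (median -0.65). Idh3a, a subunit of the NAD-dependent isocitrate dehydrogenase, went from 8.55 and 8.43 to 5.93 and 6.27 (-2.39, SE 0.26), and Idh2, the mitochondrial NADP-dependent enzyme, from 10.36 and 10.38 to 8.38 and 9.05 (-1.65, SE 0.28). Me1, the cytosolic malic enzyme, rose by 1.60 (SE 0.25). Of 44 oxidative phosphorylation genes 14 fell and none rose, with a median of -0.34, and 40 were negative. Ndufv1, a core subunit of complex I, went from 12.18 and 12.18 to 11.10 and 11.26 (limma adjusted p = 0.00216).

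Glycolysis and hypoxia genes held 7 risen and none fallen of 30 (median 0.70). The risen members were P4ha2, P4ha1, Ndrg1, the glucose transporter Slc2a3 and the glycolytic enzymes or regulators Eno2, Pfkfb3 and Pfkp, and the call of P4ha1 was lost in 9 of 16 alternatives. P4ha2, a collagen prolyl hydroxylase, rose from 6.99 and 7.32 to 10.38 and 9.27 (2.68, SE 0.40) and Ndrg1, a stress-induced gene, by 1.90 (SE 0.22). Gapdh, a glycolytic enzyme, was at 14.51 and 14.65 against 15.06 and 14.57 and did not pass (0.23, SE 0.26, adjusted p = 0.531, with a value below 0 without LPS 1). Acod1, which makes itaconate, rose from 10.92 and 10.68 to 14.81 and 14.55 (3.88, SE 0.32). Enzymes of arginine, itaconate, tryptophan and tetrahydrobiopterin held 5 risen and 4 fallen of 18, and amino acid and metabolite transporters 8 and 3 of 36 (median 0.66). The arginine transporter Slc7a2 rose by 3.83 (SE 0.41) beside Nos2, and Srm, the spermidine synthase, fell by 2.81 (SE 0.45).

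Nucleotide and one-carbon metabolism fell in 18 of 35 genes and rose in 2 (median -0.87). Ctps, the CTP synthase, went from 8.90 and 9.04 to 5.81 and 6.29 (-2.92, SE 0.36), Adk, adenosine kinase, fell by 2.67 (SE 0.18), and Cad, the enzyme that opens pyrimidine synthesis, by 1.98 (SE 0.33). The cholesterol list fell in 14 of 27 genes and rose in 3 (median -0.85). Dhcr7, which completes cholesterol synthesis, went from 8.26 and 8.08 to 6.03 and 5.87 (-2.22, SE 0.29) and Sqle, squalene epoxidase, fell by 1.29 (SE 0.16), while Pmvk, a kinase of the mevalonate pathway, rose by 1.36 (SE 0.17).

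Fatty acid genes were mixed, 6 risen (13.6%) and 11 fallen (25%) of 44. The desaturase Fads1 went from 13.12 and 12.87 to 10.84 and 10.97 (-2.09, SE 0.21) and the elongase Elovl6 fell by 2.57 (SE 0.34). The lipid droplet genes Hilpda and Dgat2 rose by 2.72 (SE 0.46) and 2.14 (SE 0.23).

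The eicosanoid genes, which make and sense prostaglandins and leukotrienes, held 2 risen and 6 fallen members of 18 tested. Ptgs2, the inducible cyclooxygenase, went from 5.23 and 5.08, detected on 1 of the 2 arrays, to 10.00 and 8.87 (4.28, SE 0.40), beside Ptges described above. Alox5, the 5-lipoxygenase that opens leukotriene synthesis, went from 10.81 and 11.63 to 7.11 and 7.86 (-3.73, SE 0.43). Hpgds, which makes prostaglandin D2, fell by 3.33 (SE 0.41), and Ptger3, a prostaglandin E2 receptor, was not detected with LPS and was at least 4.67-fold lower. The further prostaglandin E synthases Ptges2 and Ptges3 and the leukotriene C4 synthase Ltc4s were not called.

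Complement held 3 risen and 4 fallen of 12. Cfb, factor B of the alternative pathway, rose from 9.08 and 7.96 to 12.12 and 11.51 (3.29, SE 0.37) and C2 by 2.10 (SE 0.35). The chains of C1q, the recognition molecule of the classical pathway, all fell: C1qb from 11.80 and 11.99 to 8.45 and 7.17 (-4.09, SE 0.46), C1qc by 3.79 (SE 0.58), and C1qa from 7.80 and 8.14 to below detection, at least 6.63-fold.

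Stress genes were mixed. The unfolded protein and integrated stress list held 10 risen and 4 fallen of 30, where Ddit4, an inhibitor of mTORC1, rose by 3.58 (SE 0.41) and Ddit3 (CHOP) from 7.37 and 7.24 to 10.10 and 9.96 (2.73, SE 0.19), and Sdf2l1, a protein of the endoplasmic reticulum, fell by 1.10 (SE 0.20). Hspa1a, an inducible Hsp70, was not detected without LPS and was at least 5.91-fold higher, while the mitochondrial Hsp70 Hspa9 fell (limma adjusted p = 0.00416). Heat shock chaperones as a list held 5 risen and 8 fallen of 28. Antioxidant and iron genes held 11 risen (25%) and 5 fallen (11.4%) of 44. Hmox1, heme oxygenase 1, was at 10.21 and 9.53 without and 14.33 and 12.47 with LPS (3.53, SE 0.69, a call lost without untreated 2), and Tfrc, the transferrin receptor, fell by 1.87 (SE 0.28).

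Of 57 integrin and adhesion genes 10 rose and 8 fell, shares near those of all genes, and single members changed strongly. Itgb7 went from 10.57 and 11.01 to 7.04 and 5.75 (-4.39, SE 0.56) and Itgae, which pairs with it to bind E-cadherin, from 11.02 and 11.85 to 6.92 and 8.02 (-3.97, SE 0.41). E-cadherin itself, Cdh1, fell by 2.93 (SE 0.46). Itga5, a fibronectin receptor chain, and Itgb8 rose by 2.57 (SE 0.35) and 2.95 (SE 0.32), and Sema7a, a membrane-bound semaphorin, by 3.06 (SE 0.24). Itgax, the CD11c chain that defines these cells, fell by 1.10 (SE 0.20, with -0.69 as the mean of its probes) from 9.13 and 9.16 on the untreated arrays.

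Of 47 genes of receptors for metabolites and nucleotides and of ion channels 12 fell (25.5%) and 5 rose (10.6%). Beside Ffar2, the adenosine receptor Adora3 fell by 3.66 (SE 0.50) and the lysophospholipid receptor Gpr34 went from 8.13 and 7.88 to below detection, at least 6.80-fold. Gna15, a G protein alpha subunit of blood cells, fell by 3.50 (SE 0.43), within a list of G protein and phosphoinositide genes with 14 risen and 10 fallen of 47. The rises there were smaller, as for Pik3ap1, an adaptor of PI3 kinase, by 1.75 (SE 0.17).

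Lysosomal genes held 7 risen and 10 fallen of 50, shares near those of all genes. Man2b1, lysosomal alpha-mannosidase, went from 14.24 and 13.95 to 12.03 and 11.47 (-2.35, SE 0.26), Gusb, beta-glucuronidase, fell by 2.04 (SE 0.16) and the protease Ctse by 1.97 (SE 0.17). Laptm4a, a lysosomal membrane protein, rose by 1.09 (SE 0.16). Ctsa, cathepsin A, was read by 4 probes that disagreed in sign, and its rise is uncertain. Autophagy genes held 8 risen (23.5%) and 5 fallen (14.7%) of 34. Tax1bp1, a cargo receptor, went from 12.45 and 12.46 to 13.54 and 13.61 (1.13, SE 0.14). Among Rab GTPases and SNAREs 12 rose and 7 fell of 61, among them Stx11, a syntaxin of cytotoxic and myeloid cells, up by 1.55 (SE 0.20), and Stx3, down (-1.24, SE 0.24).

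Of 37 genes of the BCL2 family, caspases and death pathways 11 rose and 4 fell, with Bcl2l14 up by 2.25 (SE 0.42) and Dapk1, a death-associated kinase, down by 1.34 (SE 0.25) on the log2 scale. Of 74 chromatin modifiers 9 rose and 6 fell, 20.3% called against 30.3% over all genes. Pcgf5, a subunit of Polycomb repressive complex 1, rose from 12.32 and 12.05 to 13.95 and 13.92 (1.75, SE 0.18), and Dot1l, the H3K79 methyltransferase, by 1.71 (SE 0.24). Ezh2, the histone methyltransferase that the series studies, was at 9.78 and 9.57 without and 10.26 and 10.97 with LPS, and its change of 0.94 (SE 0.38, limma adjusted p = 0.0966) did not pass. It passed in 4 of 16 alternatives (adjusted p from 0.0246 to 0.354 over all 16): with the 4 wild type arrays alone, with the replicate block, and without either LPS-treated Ezh2-deficient array. Of 54 regulators of messenger RNA decay and splicing 8 rose and 8 fell, 14.8% each way, near the shares of all genes. Zc3h12a, the ribonuclease Regnase-1 that degrades cytokine messages, rose by 1.75 (SE 0.17), and the splicing regulators Celf2 and Mbnl1 fell by 2.06 (SE 0.24) and 1.77 (SE 0.15, with -0.99 as the mean of the Mbnl1 probes). Of 33 nuclear receptor and clock genes 7 rose and 2 fell, with the clock gene Per1 up by 1.51 (SE 0.30, a call lost without untreated 2) and Cyp27a1, the sterol 27-hydroxylase, down from 10.32 and 10.09 to 6.97 and 7.70 (-2.87, SE 0.28).

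Of the called genes 2502 were in none of the lists. The largest rises there, beside Saa3, Vnn3 and Susd2, were Schip1, from 6.19 and 6.10 to 10.35 and 10.29 (4.18, SE 0.27), Procr, the endothelial protein C receptor, from 4.99 and 5.16 to 9.16 and 9.11 (4.06, SE 0.23), and Pla1a, a phosphatidylserine lipase, from 6.88 and 8.08 to 10.49 and 12.42 (3.97, SE 0.74). The 2 arrays of each stage lay close together for Schip1 and Procr and far apart for Pla1a. Gp6, the collagen receptor known from platelets, was not detected without LPS and was at least 11.5-fold higher. Orm1, an acute-phase protein, rose by 3.86 (SE 0.49), Car13, a carbonic anhydrase, by 3.81 (SE 0.23), and Ifi214, a relative of the listed Ifi200 genes, by 3.79 (SE 0.42). Hr, the corepressor hairless, went from 11.38 and 12.11 to 7.60 and 7.35 (-4.27, SE 0.27).

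Detection itself changed for some genes. Beside those already mentioned, Tnfsf14, Tlr5, Il18r1, Hpgds and Adora3 were detected on 1 of the 2 LPS arrays, and Itgb8, Procr, Ptgs2 and Cxcr5 on 1 of the 2 untreated arrays. There were 184 genes detected on LPS 1 and 2 and on neither untreated array, of which 105 rose, and 400 with the reverse pattern, of which 230 fell. With a detection p under 0.01, a threshold added after seeing the data, the counts were 206 and 404. By bound, the interferon-inducible Ifi205 (at least 73.3-fold), Slc1a2 and the interferon-inducible Ifit1bl1 (at least 18.1-fold) led the genes that appeared, followed by Il10, Gp6 and Dusp14. Genes that went below detection were led by Asgr2, Septin3, Acot6 and Ccr2, with Susd4, a complement regulator, and Mns1, a protein of meiosis and cilia, both at least 10.8-fold lower.

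Some markers of T and NK cells were among the genes that fell. The marker genes in this paragraph were chosen after their values were seen. Of 10 tested T and NK markers 4 fell, Cd3g from 8.08 and 8.37 to below detection (4.58 and 4.60), Cd3d from 6.87 and 7.75 to below detection, Klrd1 by 2.76 (SE 0.31) and Cd8b1 by 1.92 (SE 0.14), and Prf1, perforin, rose by 1.13 (SE 0.27). The markers Cd3e, Cd2, Nkg7, Zap70 and Klrb1c were not called, and the changes of Zap70 (0.25) and Klrb1c (0.51) were positive. A further 12 markers of the list, among them Cd4, Cd8a, Lck and Trac, were not tested. The summed intensity of the tested T and NK markers was 4193 and 5053 without and 1858 and 2042 with LPS. Of 20 neutrophil markers 4 fell, for example Stfa2 by 1.52 (SE 0.21) and Chil3 by 1.28 (SE 0.23), and Lcn2 rose. S100a8 was at 13.52 and 12.42 without and 12.20 and 11.004 with LPS, where set 1 was above set 2 at each stage, and it did not pass (adjusted p = 0.184). The other marker lists held few calls: 1 risen and 1 fallen of 9 mast cell, basophil and eosinophil markers, 1 and 0 of 9 B cell, 2 and 1 of 6 plasmacytoid, 1 and 1 of 9 erythroid, 2 and 2 of 11 stromal and 0 and 2 of 9 progenitor markers. The part of any of these cells in the responses above was not tested.

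The pair of set 3 ran against its labels across the genome. As labelled, LPS 3 minus untreated 3 had the opposite sign of the fitted change in 3285 of the 3307 called genes, 1364 of the 1377 risen and 1921 of the 1930 fallen, and among the 2121 called genes that changed at least 2-fold in 2116. With the stages exchanged the difference of set 3 correlated with the fitted change at r = 0.927 over 10908 genes, with a slope of 1.09. Set 2 correlated with set 1 at r = 0.862, with a slope of 0.83. The fitted change averages sets 1 and 2, so the 2 correlations are unlike measures and do not rank the sets. All arrays were normalized together and genes are not independent replicates, so these values are a description.

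Single genes showed the same order. Plat was at 11.32 on the array labelled untreated 3 and at 5.86 on the one labelled LPS 3, a difference of -5.46 as labelled and 5.46 exchanged, against 6.21 in sets 1 and 2. Il1a was at 14.12 and 7.85, Nos2 at 11.78 and 4.89, Slamf1 at 11.64 and 7.08 and Marco at 10.64 and 6.13, in the same labelled order. Fcrls was at 8.10 and 12.97, Mrc1 at 6.75 and 12.73, Kif23 at 7.82 and 11.72 and Heatr1 at 7.70 and 11.36. For each of these the array labelled untreated lay with LPS 1 and 2 and the array labelled LPS with untreated 1 and 2. All 268 called genes named by rule kept the sign of the fit with the stages exchanged. The list medians with the stages exchanged were -2.12 for mitosis, -1.28 for DNA replication, -1.62 for ribosome biogenesis, 1.30 for MHC class I presentation and 0.998 for NF-kB regulators.

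Among the 22 called genes whose labelled set 3 difference had the sign of the fit, none changed by more than 1.61 in size. Rarres1, chosen after its values were seen as the largest of them, rose by 1.61 (limma adjusted p = 0.0416) and was at 7.15 and 7.21 on the arrays labelled untreated 3 and LPS 3. A limma fit of all 12 arrays under their labels gave 0 calls, with 90 genes at an unadjusted p under 0.05.

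**Figure D5:**
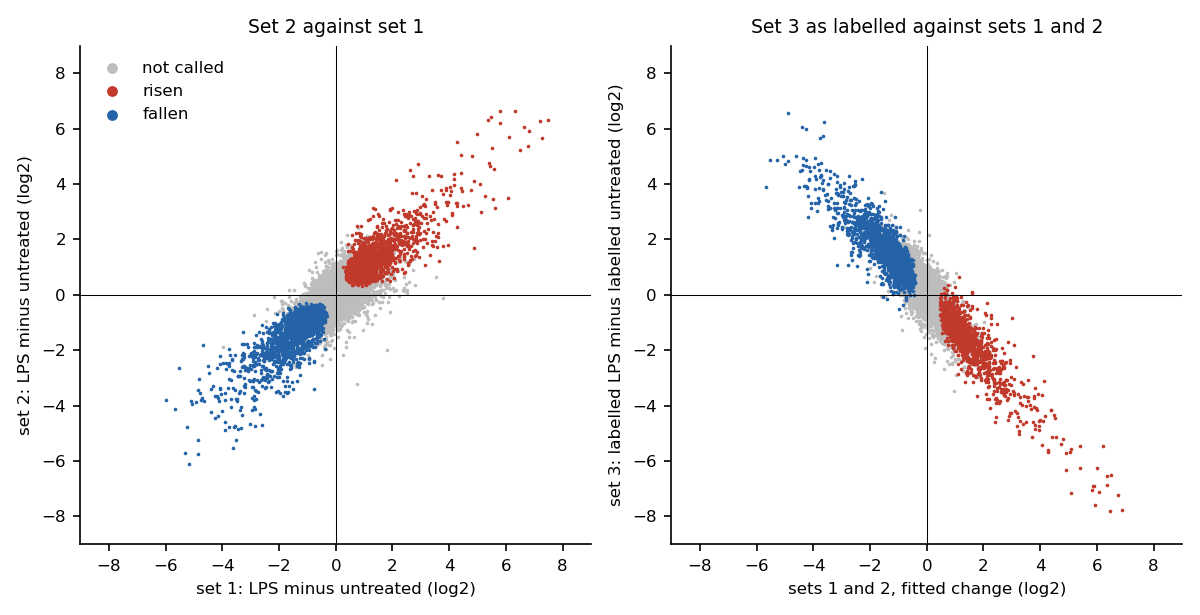
Left, LPS minus untreated in set 2 against set 1. Right, labelled LPS minus labelled untreated in set 3 against the fitted change of sets 1 and 2, all log2, each point 1 of 10908 genes, coloured by its call (1377 risen, 1930 fallen). Set 2 follows set 1 (r = 0.862), and set 3 as labelled runs opposite to the fitted change (r = -0.927).

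The Ezh2-deficient cells of sets 1 and 2, grown under the same protocol and given the same LPS dose, gave a comparison of the response itself. Whether the 6 hours in serum-free medium applied alike to the mature cells of both genotypes is not stated. No gene's difference in response between the genotypes passed the test (limma interaction, 0 of 10908 called, 169 at an unadjusted p under 0.05, smallest adjusted p = 0.99967). In Ezh2-deficient cells 1662 genes rose and 2264 fell. All 1377 genes that rose in wild type cells had a positive change there, and 1927 of the 1930 fallen genes a negative one. Il12a changed by 6.25 in Ezh2-deficient and 6.49 in wild type cells, and Plat by 6.09 and 6.21. Among named genes the smallest unadjusted p of the difference was that of C1qa, which changed by -1.33 and -3.15. Il6 changed by 7.23 and 5.83 and Saa3 by 7.68 and 5.94 in the same order of genotypes. Over all genes it was that of the T cell gene Cd3g, with -6.20 and -3.63, and none of these passed after adjustment. A test that misses its threshold with 2 arrays a group does not show that the responses were alike.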

How the data were processed

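Illumina bead arrays of dendritic cell RNA were deposited as average bead intensity per probe and array, not normalised, with a detection p-value per probe, per the file headers. The authors also deposited a log2 value table, which matched quantile normalization of those intensities without background correction and served as an alternative. The submitters' processing notes list BeadStudio, limma and R 2.15.2, and the genome build is not given in the sources used here.

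Intensities of all 12 arrays were corrected and normalized with neqc (limma 3.58.1 in R 4.3.3, offset 16, negative controls inferred from the detection p). Probes detected at p under 0.05 on at least 3 arrays were kept. A gene was read by 1 kept probe, the one whose mean over all 12 arrays was highest. Of 45281 probes 34885 had 1 symbol in the platform annotation (34807 of these updated by gene ID), 18 several and 10378 none. Levels are compared within a gene only. A model of 4 group means was fitted to the 8 arrays of sets 1 and 2 with lmFit and eBayes (intensity trend), p-values were adjusted by Benjamini-Hochberg over 10908 genes, and an adjusted p under 0.05 is a call. The fit was tested on simulated data.

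Genes were named by rule. The 15 largest rises and falls outside the interferon list were taken among called genes whose stages did not overlap. Added were the 3 largest rises in that list and up to 3 called members each way per other pathway list (46 lists, and 10 of markers). The rest were the 10 largest each way in no list, the 6 largest bounds each way for detection, and 13 fixed genes. Of the fixed genes Il12b had no probe under its symbol and was not analysed here. Not every gene so named is printed, and 1 of the pathway lists is not reported here. The comparison, its lists and its rules were chosen with earlier results of these data known. Alternatives were the deposited values, other background correction, filter, probe, array and variance choices, a 2-fold threshold, the replicate number as a block, and each replicate left out. Replicate numbers are shared between the stages, but nothing in the labels says that they pair cultures. The comparison was therefore not blocked.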

Additional observations from a re-analysis of the deposited data

Results flagged for a closer look

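Probes without a single gene symbol gave a signal that the comparison of genes does not use. Of 3417 such probes tested in the same way, 267 were higher with LPS in wild type cells and 296 lower (limma, adjusted p under 0.05). The largest rise was that of ILMN_2954474, which was at 4.94 and 5.23 on untreated 1 and 2 and at 11.24 and 11.69 on LPS 1 and 2 (6.38, SE 0.34, limma adjusted p = 6.12e-05). ILMN_1226007 rose by 5.42 (SE 0.54). The largest falls were those of ILMN_2430359, by 4.68 (SE 0.45), and ILMN_2753497, by 4.45 (SE 0.40). No gene is named for these probes here.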

How the results depend on the processing

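With all 12 arrays as labelled 0 genes were called, 0 risen and 0 fallen. A 2-fold minimum left 2121 calls, 896 risen and 1225 fallen. With 1 array left out in turn the calls ran from 1784 to 3461, the risen genes from 726 to 1470 and the fallen from 1058 to 1991, the lowest counts being without untreated 2 and, at 2018, without untreated 1. The other settings gave 2930 to 3302 calls, apart from the replicate block. With the replicate number as a block 4489 genes were called (1966 risen, 2523 fallen), among them 3306 of the 3307. Deviations of same-numbered wild type arrays correlated at r = 0.311 over genes, and those of the 6 pairs of groups at 0.218 to 0.717, with 2 numbers only, which does not settle a pairing. The deposited values called 3273 genes, 3220 of them shared. The median size of change among the main calls was 0.876 on them against 1.19, so fold sizes depend on the background correction. Quantile normalization without background correction gave the same 3273 and 3220, so counts out of 16 alternatives hold this setting 2 times. Of the 268 called genes named by rule 199 kept the call under all 16 alternatives other than the 12 arrays. Signs turned for Dusp3 (0.19 as the mean of its probes), Slc43a2 (0.0094 with 12 arrays), Tlr4 (-0.19 as the mean of its probes, and -0.28 to 0.62 with 1 array left out, below 0 without LPS 1 or untreated 2) and Gapdh (-0.011 to 0.48 with 1 array left out, below 0 without LPS 1). The causes were not tested. With 2 arrays a stage, small changes and genes near the background or at the top of the scale are the least certain.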
